A study of Mus musculus with 8 samples.

Results

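Of the genes measured in these brains, 41 encode glutamate receptors or proteins that hold or regulate them at the postsynaptic membrane, out of 19938 genes with a signal. They were chosen by symbol among probe sets with 1 gene symbol: those named Gria, Grik, Grin, Grid or Grm followed by a digit, with the scaffold genes Dlg1 to Dlg4, Shank1 to Shank3 and Homer1 to Homer3, the AMPA receptor partners Cnih2, Cnih3, Gsg1l, Grip1 and Pick1, and the kinase subunits Camk2a and Camk2b. Where a gene had several probe sets, the brightest on average over the 8 arrays stood for it, and no filter on low signal was used, so all 41 were tested. Grin1, which also fits the naming rule, was not analysed here. RNA came from lysed brains of male mice 2 to 4 months old, with no treatment listed: 4 biological replicates labelled TNF-/- and 4 labelled TNF+/+, with C57BL/6 named for TNF+/+ alone. The labels name neither the TNF allele nor its strain background, and do not say whether the groups were littermates. Affymetrix Mouse Gene 1.0 ST arrays were used, 1 per replicate, and the values are the authors' log2 signals, so that a difference of 1 is a 2-fold change.

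Glutamate is the main excitatory transmitter of the brain. AMPA and kainate receptors are ion channels that carry fast currents, NMDA receptors are channels that admit calcium when the cell is already depolarised, and metabotropic receptors act through G proteins. Beneath the membrane, scaffold proteins of the Dlg, Shank and Homer families tie these receptors to each other and to the actin skeleton, and the kinase CaMKII changes their number and conductance during plasticity. Tumour necrosis factor (TNF) released by glia is known to raise the amount of AMPA receptor at the surface of cultured neurons, which makes these genes of interest in animals labelled as lacking it. Such an effect concerns receptor protein at the membrane, which the arrays do not measure.

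Signal of Tnf itself went against the labels. It was 5.67, 5.87, 5.92 and 6.21 in the arrays labelled TNF-/-, against 4.48, 4.93, 4.24 and 4.47 in those labelled TNF+/+ (difference 1.39 ± 0.16, SE; limma, adjusted p = 0.0278), and with an array left out it was between 1.29 and 1.52 in all 8 fits, of which 1 passed. Without TNF+/+ arrays 3 and 4 it was 1.21. Where its probes lie relative to the deleted part is not stated, so every direction below is that of arrays as labelled. Markers of neurons were present at a like level in every array, with list means of 10.65 to 10.69 under the label TNF-/- and 10.62 to 10.71 under TNF+/+. Markers of cerebellum were not: their list mean was 7.42 in TNF+/+ array 1 and at most 5.97 in every other array. Markers of oligodendrocytes ran from 9.49 to 9.60 under TNF-/- and from 9.61 to 9.94 under TNF+/+, highest in TNF+/+ arrays 3 and 4 (9.91 and 9.94). In lysates of whole tissue, fewer cells of a type and less RNA per cell cannot be told apart.

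None of the 41 receptor and scaffold genes passed the test between arrays labelled TNF-/- and TNF+/+, where 10 of all 19938 genes did (0.0502%). The smallest adjusted p was that of Grip1 (limma, adjusted p = 0.315), and the differences ran from -0.22 for Cnih2 to 0.30 for Grin3a. Over all probe sets limma called 29 of 35556 (0.0816%). Significance Analysis of Microarrays (SAM), the test named in the study's design and rebuilt here, called 53 (0.149%), again with 0 of the 41. At an unadjusted p under 0.05 there were 5 members with higher signal in the arrays labelled TNF-/- (Grip1, Grin2d, Grin3a, Gria1 and Grik3) and 0 with lower signal, while 7.37% of all genes were higher and 4.28% lower. The 5 make up 12.2% of the members. The count changed with the arrays used: without TNF+/+ arrays 3 and 4 it was 0, and 2 others, Homer3 (-0.37) and Grin2b (-0.21), were lower at that threshold. TNF+/+ arrays 3 and 4 had the lowest signals of all arrays for each of the 5, so leaving them out had to lower those differences. For Homer3 and Grin2b they were below the other TNF+/+ arrays, with the same effect. That fit also has fewer arrays, and no other pair was left out. With a single array left out the count of higher members was 1 without TNF-/- array 2, 2 without TNF-/- array 3, TNF+/+ array 3 or TNF+/+ array 4, 3 without TNF-/- array 1, and 5 in the remaining cases. Lower members numbered 2 without TNF-/- array 1, 1 without TNF+/+ array 2, and 0 otherwise. The median difference was 0.03 over the 41 and -0.01 over all genes, and 25 of the 41 differences were above 0, against 47.8% of all genes.

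The intervals give the range of differences that each gene's arrays left. For 16 of the 41 genes the 95% interval of the difference lay wholly inside a 1.2-fold change in either direction, and for 40 it lay inside 1.5-fold, with Grin3a the exception. These intervals are not adjusted for the number of genes. Grin3b and Grm6 had mean signals below 4.00, the 25th percentile of all probe sets, and Grid2ip and Homer3 lay below the median probe set (5.08). The intervals of these 4 therefore say little about the transcripts, even where narrow. That of Homer3 was wide (-0.47 to 0.15).

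**Figure D1:**
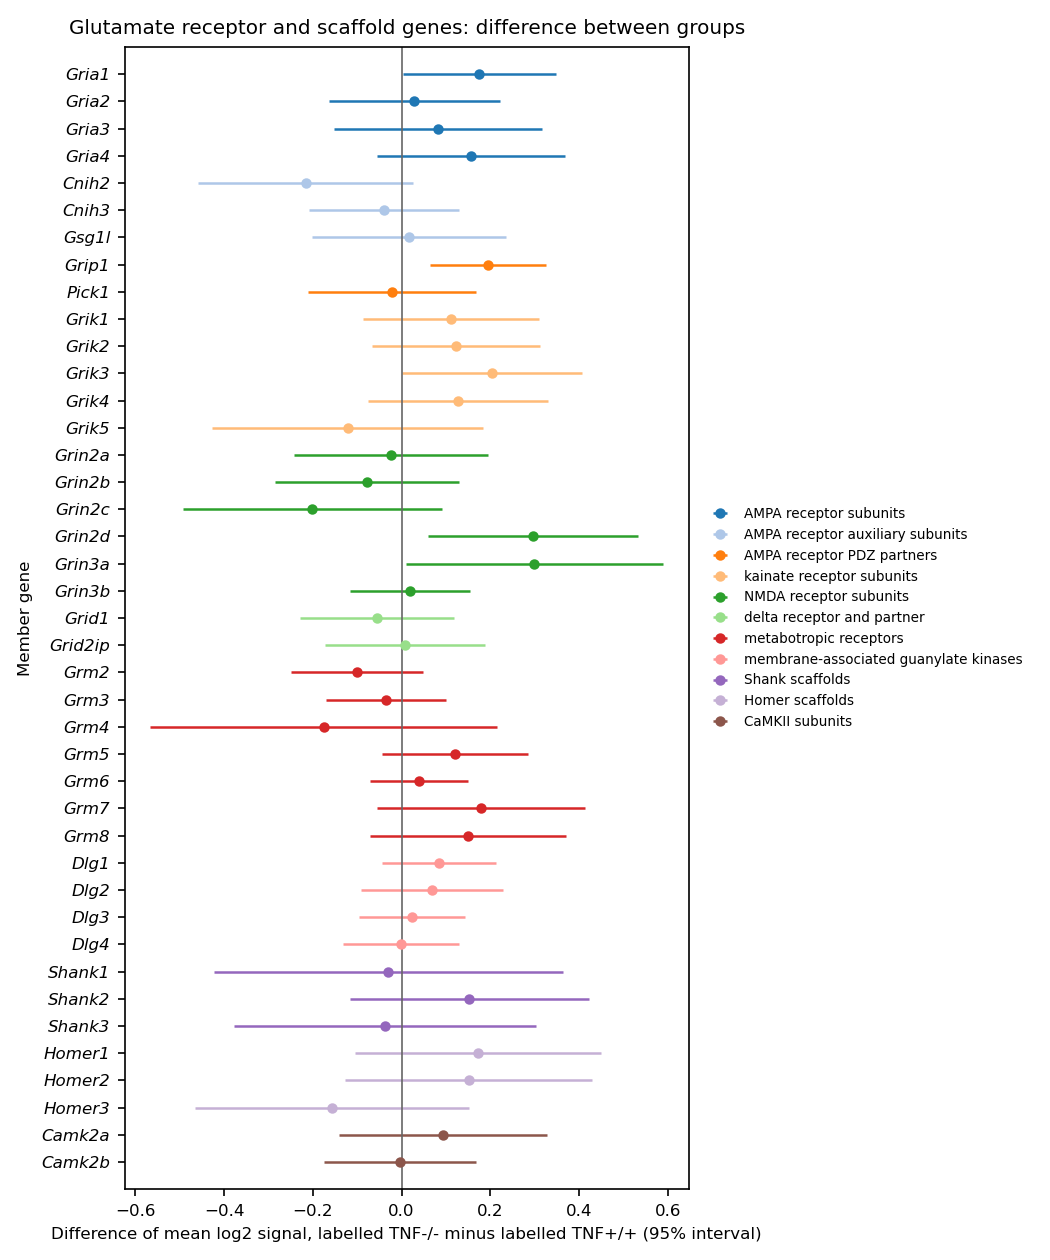
Difference of mean log2 signal, arrays labelled TNF-/- minus arrays labelled TNF+/+ (horizontal axis), for each of the 41 genes (vertical axis, coloured by role), with points for limma's estimate and bars for its unadjusted 95% interval. The intervals of 5 genes lie above 0, those of Grip1, Grin2d, Grin3a, Gria1 and Grik3, and none lies below.

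Sequence upstream of the start site is shown for 4 members, from RefSeq on GRCm38.p6: Grip1 and Grin2d because their p was smallest, and Dlg4 and Shank3 because they hold a match to the NF-kB consensus, the binding sequence of the transcription factor that TNF activates. The stretch before the start was searched on both strands, and capitals mark a match. Of the 41 genes 28 had an entry, with 45 start sites, of which 3 held a match (6.67%), in Dlg4, Shank3 and Grm6. Among all 32851 start sites of the RefSeq set, 5.00% held one. The 2 shares differ in base composition: G and C made up a median of 62.4% of the letters at the members' starts and 52.4% over all starts. The marked matches consist mostly of G and C, and the part of base composition was not tested. The match begins 34 bases before the start in Dlg4 and 123 bases before it in Shank3.
Grip1, chr10:119453784-119454033, plus strand: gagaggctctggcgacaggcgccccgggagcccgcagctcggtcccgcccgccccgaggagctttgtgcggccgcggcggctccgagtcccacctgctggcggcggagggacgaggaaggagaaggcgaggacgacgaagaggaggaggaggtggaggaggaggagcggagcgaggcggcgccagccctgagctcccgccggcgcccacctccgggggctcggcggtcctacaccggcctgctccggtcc
Grin2d, chr7:45866682-45866931, minus strand: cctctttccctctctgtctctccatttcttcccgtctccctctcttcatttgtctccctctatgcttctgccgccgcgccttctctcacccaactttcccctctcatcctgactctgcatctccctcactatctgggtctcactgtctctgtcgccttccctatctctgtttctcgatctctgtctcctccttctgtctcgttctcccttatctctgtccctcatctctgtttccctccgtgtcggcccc
Dlg4, chr11:70018355-70018604, plus strand: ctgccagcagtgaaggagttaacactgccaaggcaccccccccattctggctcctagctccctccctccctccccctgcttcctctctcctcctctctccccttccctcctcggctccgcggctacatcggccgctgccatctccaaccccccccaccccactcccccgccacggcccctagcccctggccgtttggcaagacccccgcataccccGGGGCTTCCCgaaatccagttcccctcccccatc
Shank3, chr15:89499358-89499607, plus strand: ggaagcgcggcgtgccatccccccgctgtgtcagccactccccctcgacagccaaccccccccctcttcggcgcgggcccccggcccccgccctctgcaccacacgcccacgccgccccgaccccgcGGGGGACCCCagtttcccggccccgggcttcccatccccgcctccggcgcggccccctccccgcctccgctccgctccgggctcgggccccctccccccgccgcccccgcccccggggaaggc
Grip1 and Dlg4 have 2 further start sites each, and which start the probes follow is not given. The letters of Grip1 and Grin2d hold no match in this window. A match describes letters and is no evidence of binding.

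AMPA receptor subunit genes were all 4 above 0 in difference, with 0 passing and a median of 0.12. Gria1 encodes GluA1, the subunit that is inserted during long-term potentiation in the hippocampus. Its signal was 10.39, 10.40, 10.51 and 10.48 in the arrays labelled TNF-/-, against 10.44, 10.31, 10.13 and 10.20 in those labelled TNF+/+. The groups overlapped through TNF+/+ array 1, and TNF+/+ arrays 3 and 4 were lowest. The difference was 0.18 ± 0.08 (SE; limma, adjusted p = 0.457), and 0.07 without those 2 arrays. Gria2, whose edited product makes AMPA receptors impermeable to calcium, was at 11.24, 11.33, 11.35 and 11.47 under the label TNF-/- and at 11.46, 11.42, 11.19 and 11.20 under TNF+/+. Its difference was 0.03 ± 0.08 (SE), with an interval from -0.16 to 0.22, and without TNF+/+ arrays 3 and 4 it was -0.09. Gria3 differed by 0.08 ± 0.10 and Gria4, a subunit with fast kinetics, by 0.16 ± 0.09 (SE). Without TNF+/+ arrays 3 and 4, Gria3 stood at -0.06 and Gria4 at 0.06.

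Partners of AMPA receptors included the single member whose groups did not overlap. Grip1 encodes a protein with several PDZ domains that binds the tails of GluA2 and GluA3 and holds receptors at synapses and on transport vesicles. Its signal was 6.61, 6.75, 6.61 and 6.63 in the arrays labelled TNF-/-, against 6.48, 6.52, 6.40 and 6.42 in those labelled TNF+/+. All 4 TNF-/- arrays lay above all 4 TNF+/+ arrays, which held for 1 of 41 members and in this direction for 4.16% of all genes. The reverse, all TNF-/- arrays lower, held for 0 of 41 members and 3.5% of all genes. Mean signal was 6.65 ± 0.07 under TNF-/- and 6.46 ± 0.06 under TNF+/+ (SD, n = 4 each), a difference of 0.20 ± 0.06 (SE) or 1.15-fold, with a 95% interval of 0.07 to 0.33 on the log2 scale, and it did not pass (limma, adjusted p = 0.315). In every fit with a single array left out the difference stayed between 0.16 and 0.22, and without TNF+/+ arrays 3 and 4 it was 0.15. Pick1, which encodes a PDZ protein that binds the same tails and draws receptors inward, differed by -0.02 ± 0.08 (SE).

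Among auxiliary subunits, Cnih2 had the lowest difference of the 41. It encodes a cornichon protein that slows the closing of AMPA receptors and aids their export to the surface. Signals were 9.47, 9.22, 9.38 and 9.17 under the label TNF-/-, against 9.41, 9.34, 9.63 and 9.73 under TNF+/+. The groups overlapped, and TNF+/+ arrays 3 and 4 were the highest of all 8. The difference was -0.22 ± 0.11 (SE; limma, adjusted p = 0.501), and -0.06 without those 2 arrays. Its relative Cnih3 differed by -0.04 ± 0.07 and Gsg1l, which encodes an auxiliary subunit that slows recovery from desensitisation, by 0.02 ± 0.10 (SE).

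**Figure D2:**
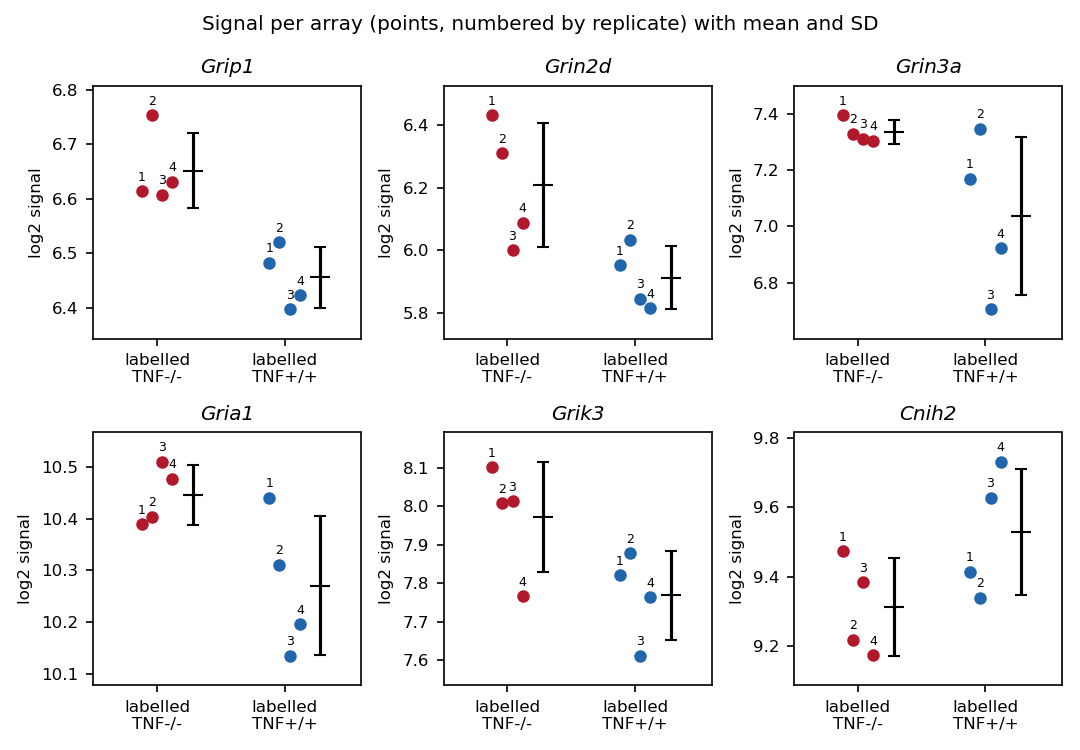
Log2 signal (vertical axis) of the 6 genes with the smallest p, in the 4 arrays labelled TNF-/- and the 4 labelled TNF+/+ (points, numbered by replicate), with the mean and SD of each group beside them. The groups are apart only for Grip1, and TNF+/+ arrays 3 and 4 are lowest for the 5 genes other than Cnih2 and highest for it.

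Kainate receptor subunits comprise Grik1, Grik2 and Grik3, which can form channels on their own, and Grik4 and Grik5, which need a partner. Of the 5 genes 4 had a difference above 0 and none passed. Grik3 had 8.10, 8.01, 8.01 and 7.77 under TNF-/-, against 7.82, 7.88, 7.61 and 7.76 under TNF+/+. Only TNF-/- array 4 reached into the range of the TNF+/+ arrays. The difference was 0.20 ± 0.09 (SE; limma, adjusted p = 0.459), and 0.12 without TNF+/+ arrays 3 and 4. Grik1, Grik2 and Grik4 differed by 0.11, 0.12 and 0.13, with intervals that include 0, and without TNF+/+ arrays 3 and 4 they stood at 0.03, 0.03 and -0.00. Grik1 was at 0.19 without TNF+/+ array 2, Grik2 at 0.19 without TNF+/+ array 1, and Grik4 at 0.08 without TNF-/- array 1 or TNF+/+ array 4. Grik5 differed by -0.12 ± 0.13 (SE), and its arrays labelled TNF-/- spread from 8.35 in array 4 to 9.02 in array 1, wider than the TNF+/+ arrays (8.68 to 8.95). The Grik5 difference was -0.01 when TNF-/- array 4 was left out and -0.24 when TNF-/- array 1 was. Leaving out TNF+/+ array 2 gave -0.07, and leaving out TNF+/+ arrays 3 and 4 gave -0.21.

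NMDA receptor subunits held the 2 largest differences of the 41, in Grin2d and Grin3a, and neither passed. Grin2d encodes GluN2D, a subunit of slow channels found in interneurons and in the diencephalon and brain stem. Signals were 6.43, 6.31, 6.00 and 6.09 in the arrays labelled TNF-/-, against 5.95, 6.03, 5.84 and 5.81 in those labelled TNF+/+. The groups overlapped by a single pair, TNF-/- array 3 below TNF+/+ array 2, and the difference was 0.30 ± 0.10 (SE; limma, adjusted p = 0.379). Without TNF+/+ arrays 3 and 4 it was 0.21. Grin3a encodes a glycine-binding subunit that lowers calcium entry. It stood at 7.40, 7.33, 7.31 and 7.30 under TNF-/-, against 7.17, 7.35, 6.70 and 6.92 under TNF+/+. The arrays labelled TNF-/- lay close together (SD 0.04, n = 4), those labelled TNF+/+ were wider (SD 0.28, n = 4), and TNF+/+ arrays 3 and 4 were lowest. The difference was 0.30 ± 0.13 (SE; limma, adjusted p = 0.453), 0.19 without TNF+/+ array 3 alone, and 0.08 without those 2 arrays. Grin2a and Grin2b, the main partners of GluN1 in the adult forebrain, differed by -0.02 ± 0.10 and -0.08 ± 0.09 (SE), with intervals of -0.24 to 0.19 and -0.29 to 0.13. Grin2c, a subunit of cerebellar granule cells, differed by -0.20 ± 0.13 (SE), with 6.994, 6.626, 6.668 and 6.358 under TNF-/- and 7.003, 6.902, 6.722 and 6.823 under TNF+/+. Its highest value was that of TNF+/+ array 1, the array with high cerebellum markers, by a margin over TNF-/- array 1 smaller than the SD of either group. Without TNF-/- array 1 the Grin2c difference was -0.31, at an unadjusted p under 0.05, and without TNF-/- array 4 it was -0.10. Grin3b differed by 0.02 ± 0.06 (SE), at the low end of the signal range.

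Delta receptors bind cerebellins, secreted proteins that bridge them to the presynaptic side. Grid1 differed by -0.06 ± 0.08 (SE), with an interval from -0.23 to 0.12. Grid2ip encodes delphilin, a postsynaptic scaffold of Purkinje cells, and differed by 0.01 ± 0.08 (SE) at low signal (3.92 to 4.22 over the 8 arrays).

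Metabotropic receptor genes gave 0 of 7 past the test and 4 of 7 above 0. Grm5, a receptor of group I, which acts through phospholipase C, had 10.53, 10.48, 10.38 and 10.38 under TNF-/-, against 10.40, 10.40, 10.31 and 10.16 under TNF+/+. The difference was 0.12 ± 0.07 (SE; limma, adjusted p = 0.575), 0.07 without TNF+/+ array 4 and 0.04 without TNF+/+ arrays 3 and 4. Group II receptors, which lower cyclic AMP, gave -0.10 ± 0.07 for Grm2 and -0.04 ± 0.06 for Grm3 (SE), the second of which is also found in astrocytes. Grm2 stood at -0.06 without TNF-/- array 3, and also without TNF+/+ arrays 3 and 4. In group III, which acts mostly at presynaptic terminals, Grm7 differed by 0.18 ± 0.10 and Grm8 by 0.15 ± 0.10 (SE). Leaving out TNF+/+ array 4 gave 0.08 for Grm7, and leaving out TNF+/+ arrays 3 and 4 gave 0.04. Leaving out TNF+/+ array 1 gave 0.08 for Grm8. The Grm7 signal of TNF+/+ array 4 (8.48) lay below the range of the other 7 arrays (8.83 to 9.07). Grm4, a receptor of cerebellar granule cell terminals, had 6.42, 6.21, 6.07 and 5.80 under TNF-/-, against 6.74, 6.13, 6.12 and 6.21 under TNF+/+. Highest was TNF+/+ array 1, and the difference was -0.18 ± 0.17 (SE), or -0.03 without that array. Leaving out TNF-/- array 4 gave -0.07, TNF-/- array 1 -0.27, and both TNF+/+ arrays 3 and 4 -0.31. Grm6, the receptor of retinal ON bipolar cells, was at 3.74 to 3.84 in all 8 arrays, at the low end of the signal range.

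Membrane-associated guanylate kinases had the smallest median SE of the role groups. Dlg4 encodes PSD-95, a major scaffold of the excitatory synapse. Its signal was 10.14, 10.10, 10.26 and 10.14 in the arrays labelled TNF-/-, against 10.14, 10.11, 10.24 and 10.16 in those labelled TNF+/+. Both groups averaged 10.16, and the interval of the fold change ran from 0.913 to 1.09. Dlg1 (SAP97), Dlg2 (PSD-93) and Dlg3 (SAP102) differed by 0.08 ± 0.06, 0.07 ± 0.07 and 0.02 ± 0.05 (SE). That median SE was 0.06, against 0.09 over all 41 and 0.08 over all genes.

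Shank proteins, which stand below the Dlg layer and bind Homer, gave 0 of 3 past the test, with wide spread. Shank1 had 9.07, 8.94, 8.68 and 8.22 under TNF-/-, against 8.81, 8.93, 8.65 and 8.64 under TNF+/+. Its SD under TNF-/- (0.37, n = 4) was the largest of any member in that group, with array 4 lowest, and its difference of -0.03 ± 0.17 (SE) became 0.14 without that array. Shank3 was likewise lowest in TNF-/- array 4, at 7.52, 7.18, 7.01 and 6.80 under TNF-/- and 7.21, 7.37, 7.02 and 7.06 under TNF+/+, a difference of -0.04 ± 0.15 (SE) that became 0.07 without TNF-/- array 4. Shank2 differed by 0.15 ± 0.12 (SE), and its 2 dimmer probe sets by 0.05 and -0.02. The Shank2 difference was 0.05 without TNF+/+ array 3 and 0.24 without TNF+/+ array 4.

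Homer proteins form multimers that link group I metabotropic receptors to Shank and to calcium stores. Homer1, which also gives rise to a short, activity-induced form, had 9.61, 9.58, 9.58 and 9.15 under TNF-/-, against 9.53, 9.20, 9.30 and 9.21 under TNF+/+. Its difference was 0.17 ± 0.12 (SE) with all arrays and 0.28 without TNF-/- array 4, the lowest of the 8. Homer2 gave 0.15 ± 0.12 (SE), or 0.27 without the same array, whose value of 8.45 was also the lowest of the 8, while a dimmer probe set of Homer2 gave 0.04. Homer2 stood at 0.09 without TNF-/- array 2 or TNF+/+ array 4, and at 0.07 without TNF+/+ arrays 3 and 4. Homer3, found in Purkinje cells, had 4.59, 4.44, 4.52 and 4.45 under TNF-/-, against 5.06, 4.68, 4.38 and 4.50 under TNF+/+. TNF+/+ array 1 was highest, and the difference was -0.16 ± 0.14 (SE), or -0.02 without it and -0.25 without TNF+/+ array 3. The annotation used does not say which Homer1 form the probe set reads.

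CaMKII subunits complete the set. Camk2a, the alpha subunit of forebrain excitatory neurons, whose mRNA is carried into dendrites, differed by 0.09 ± 0.10 (SE), with 10.72 in TNF-/- array 4 the lowest of all 8 arrays. Camk2b, the beta subunit that binds actin, differed by -0.00 ± 0.08 (SE), with an interval of -0.17 to 0.17.

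**Figure D3:**
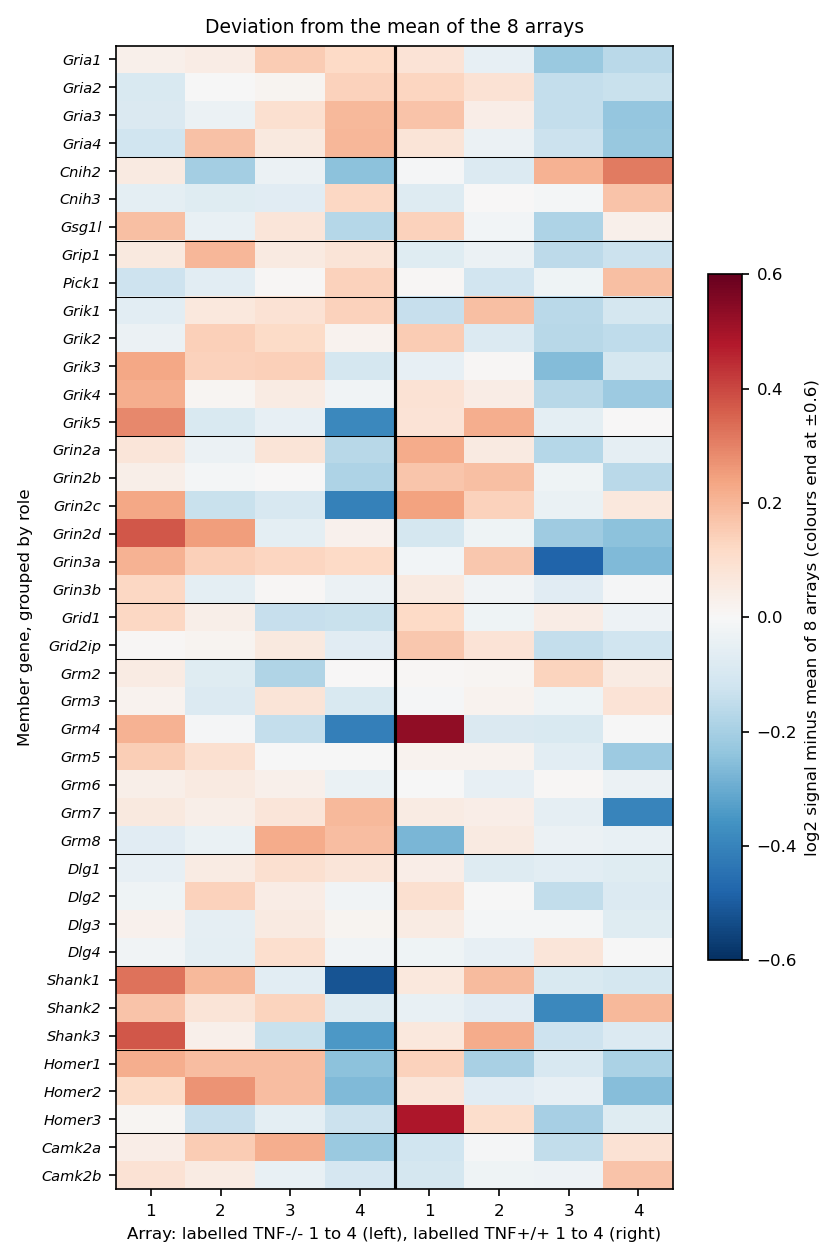
Log2 signal of each of the 41 genes (1 line each, grouped by role) minus its mean over the 8 arrays, for the 4 arrays labelled TNF-/- (left) and the 4 labelled TNF+/+ (right). TNF+/+ arrays 3 and 4 are below the mean for many receptor genes, TNF-/- array 4 is low for Shank1, Shank3, Homer1 and Homer2, and TNF+/+ array 1 is high for Grm4 and Homer3.

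Arrays of the same label differed from each other across many members. TNF+/+ arrays 3 and 4 were both below TNF+/+ arrays 1 and 2 for 22 of 41 members (53.7%), against 18.5% of all genes, and below all 6 other arrays for 14 (34.1%), against 6.94% of all genes. All 4 AMPA receptor subunit genes, Grik2, Grik3, Grik4, Grin2d, Grin3a, Grm5, Grm7, Grip1, Dlg2 and Grid2ip make up these 14. The reverse order, with these arrays above the other TNF+/+ arrays, held for 3 members (7.32%), Cnih2, Dlg4 and Grm2, against 25.3% of all genes. The median deviation of the 41 from their own means over the 8 arrays was -0.09 in TNF+/+ array 3 and -0.07 in TNF+/+ array 4, against 0.01 and 0.00 over all genes. These are the arrays with the highest oligodendrocyte markers, as given above, where 0 of 6 measured markers passed, 3 were lower in the arrays labelled TNF-/- at an unadjusted p under 0.05, and the median difference was -0.30. The part of oligodendrocyte RNA in the members' values was not tested.

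Among the arrays labelled TNF-/-, array 1 was highest for 20 of 41 members (48.8%; 24.2% of all genes) and array 4 lowest for 21 (51.2%; 28.1% of all genes). Both held at once for 15 members, among them all 3 Shank genes, Homer1, Grik3, Grik4, Grik5, Grin2b, Grin2c, Grin3a, Grm4 and Grm5, or 36.6% against 11.6% of all genes. The opposite order held for Gria2, Gria3, Gria4, Grik1 and Pick1, 5 of 41 (12.2%), against 12.6% of all genes. Spread was larger under TNF-/- for 20 members and under TNF+/+ for 21. These orders were noticed in the values and carry no test.

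TNF+/+ array 1 stood above the other 7 arrays for Grm4, by 1.52-fold over their mean, and for Homer3, by 1.47-fold. Grin2c (1.21-fold), Grin2a (1.19-fold), Grid2ip (1.14-fold) and Grik2 (1.13-fold) were also highest there. Grm8 (0.80-fold), Camk2b (0.92-fold) and Cnih3 (0.94-fold) lay below the other 7 arrays instead. No share over all genes is given for either place. Among the TNF+/+ arrays alone, array 1 was highest for 20 of 41 members (48.8%), against 20.5% of all genes. In the same array 10 measured cerebellum markers averaged 7.42, against 5.88 to 5.97 in the other TNF+/+ arrays. No marker of the list passed between groups, and the part of cerebellar RNA in the members' values was not tested. Without this array the differences of Grm4 and Homer3 were -0.03 and -0.02, as given above, and those of Grin2c and Grin2a -0.15 and 0.05.

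**Figure D4:**
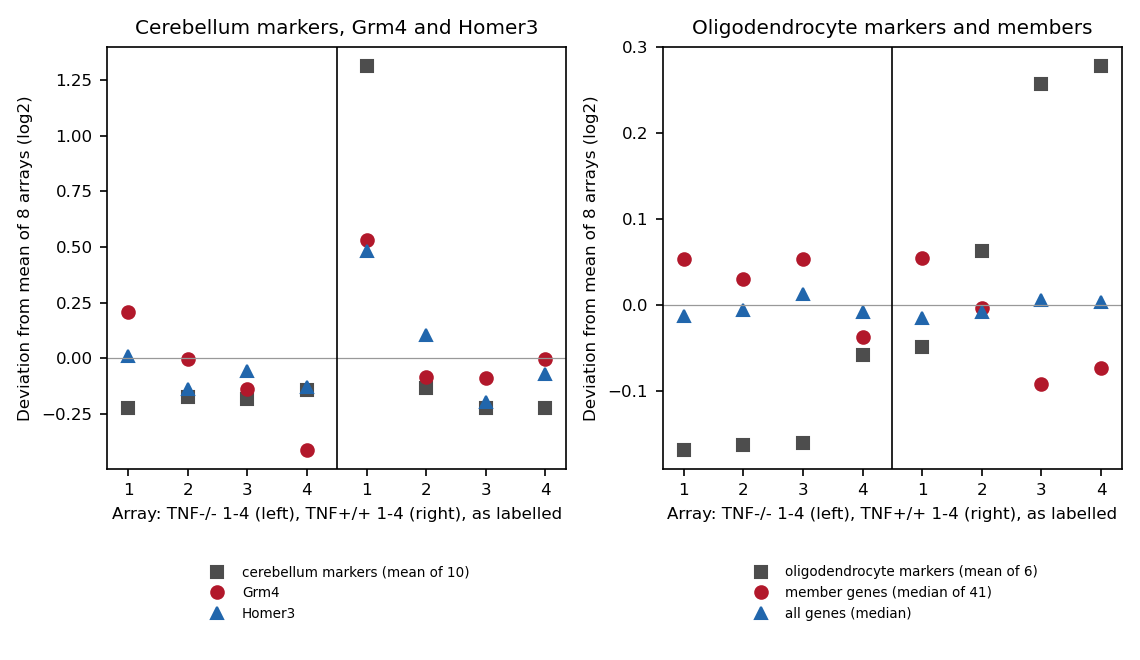
Deviation from the mean of the 8 arrays on the log2 scale (vertical axis) for each array (horizontal axis, labelled TNF-/- left and TNF+/+ right). The left panel sets the mean of 10 cerebellum markers beside Grm4 and Homer3, all highest in TNF+/+ array 1, and the right panel sets the mean of 6 oligodendrocyte markers, highest in TNF+/+ arrays 3 and 4, beside the median of the 41 members, lowest there, and the median of all genes.

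Other genes of the glutamate synapse, from a list of 49 of which 44 were analysed here, also gave 0 past the test. An unadjusted p under 0.05 was reached by 4 with higher and by 3 with lower signal under TNF-/- (9.09% and 6.82%, beside 7.37% and 4.28% of all genes). The median difference was 0.04. All TNF-/- arrays lay above all TNF+/+ arrays for 3 of the 44, Lrrtm2, Camk2d and Slc1a1, and below them for 1, Slc17a7, where 4.16% and 3.5% of all genes did so. Slc1a1 was named after its values were seen. All 4 that were higher come from the postsynaptic partners of that list, which make up 21 of the 44. They are Lrrtm2, an adhesion protein that binds neurexin (0.20 ± 0.07, SE), Baiap2, an actin regulator that binds Shank (0.28 ± 0.10), Camk2d (0.17 ± 0.07) and Gripap1, which binds the Grip1 protein (0.20 ± 0.08; limma, adjusted p = 0.378, 0.396, 0.441 and 0.443). The groups overlapped for Baiap2 and Gripap1. Baiap2 was at 8.42 in TNF+/+ array 1, above TNF-/- arrays 2 and 4 (8.36 and 8.32). Gripap1 was named after its values were seen. Lrrtm2 had 9.29, 9.32, 9.55 and 9.33 under TNF-/-, against 9.21, 9.10, 9.20 and 9.18 under TNF+/+, without overlap. Lower were Neto2, a kainate receptor auxiliary subunit (-0.17 ± 0.06, SE), Slc17a7, the vesicular glutamate transporter of cortical neurons (-0.19 ± 0.07), and Slc1a6, the glutamate transporter of Purkinje cells (-0.15 ± 0.06; limma, adjusted p = 0.409, 0.412 and 0.437). Slc1a6 signals ran from 4.51 to 4.82, below the median probe set (5.08), and the groups overlapped. The highest Slc1a6 value was that of TNF+/+ array 1, the array with high cerebellum markers. Slc17a7 stood at 10.77, 10.73, 10.76 and 10.53 under TNF-/-, against 10.97, 10.79, 10.88 and 10.91 under TNF+/+, without overlap. Of 12 AMPA and kainate auxiliary subunits 8 had a difference below 0 (median -0.04), and of 21 postsynaptic partners 14 had one above 0 (median 0.04). Over all genes 47.8% of differences were above 0. The largest difference of the list in size was that of Arc, a postsynaptic partner named after its values were seen. It was -0.54 ± 0.39 (SE), and the groups overlapped.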

How the data were processed

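The authors' deposited values are log2 signals of whole-transcript arrays, 4 labelled TNF-/- and 4 labelled TNF+/+. Per the submitters' processing notes, GCOS, GCRMA and Partek were used, with no role or order given. The deposited log2 values ran from 2.83 to 14.1, with array medians of 5.03 to 5.11, and were used as they stand. The labels call the replicates biological and say no more of their origin. The number of arrays limits the precision.

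All 35556 probe sets were fitted with limma 3.58.1 (lmFit and eBayes, R 4.3.3), with no covariate, and p-values were adjusted by the Benjamini-Hochberg method over all of them, with a threshold of 0.05. Intervals are limma's 95% intervals. Platform annotation gave 21789 probe sets 1 gene symbol and 1621 several, and 12146 are not listed there. Of the 19938 genes 999 had several probe sets. SAM was rebuilt with all 70 assignments of the arrays, giving a false discovery rate of 4.494%. Both tests were tested on simulated data over 35556 probe sets, where limma recovered 45% of differences of 0.5 and 89% of differences of 1 on the log2 scale, and 6.29% of its calls were false. The simulated noise was independent for each probe set and array, whereas the real arrays departed together over many genes.

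The members and lists were chosen with earlier results of these data known. Named genes are the 24 members with the smallest p, the main subunits and scaffolds by name, members with 1 array apart from its group, 6 other synapse genes with the smallest p, and Tnf. The remaining members are given so that each is accounted for. Alternatives were quantile normalization, median subtraction, a filter on dim probe sets, probe sets with 1 symbol only, a trended robust prior, array weights, the replicate block, SAM, the mean of a gene's probe sets, and arrays left out. Of the further marker lists, none held a marker that passed (limma). List means under TNF-/- and under TNF+/+ ran from 5.74 to 5.84 and from 5.73 to 5.84 for hippocampus, 7.31 to 7.36 and 7.26 to 7.35 for thalamus, 8.76 to 8.94 and 8.80 to 8.90 for striatum, and 8.23 to 8.28 and 8.15 to 8.26 for cortex. They ran from 4.87 to 5.17 and from 4.69 to 5.16 for olfactory bulb, 9.34 to 9.55 and 9.40 to 9.53 for astrocytes, and 6.20 to 6.41 and 6.33 to 6.51 for microglia. At an unadjusted p under 0.05, 2 thalamus, 1 cortex and 1 olfactory bulb marker were higher under TNF-/-, and 1 astrocyte and 2 microglia markers lower. Upstream sequences are those of RefSeq on GRCm38.p6, and all 41 genes matched RefSeq by gene ID.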

Additional observations from a re-analysis of the deposited data

Results flagged for a closer look

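An array is listed here where it stood apart from the other 3 of its label by Dixon's 95% criterion. That held for 11 of 116 groups examined, where chance gives about 6, and for 6 of 82 groups among the receptor and scaffold genes. No share over all genes is given beside the 6, so they are listed as values and not as a trait of these genes. Under the label TNF-/-, Grip1 was at 6.75 in array 2, above 6.61, 6.61 and 6.63. Homer1 was at 9.15 in TNF-/- array 4, below 9.61, 9.58 and 9.58. Cnih3 was at 8.34 in the same array, above 8.16, 8.14 and 8.15. Under the label TNF+/+, Grm4 was at 6.74 in array 1, above 6.13, 6.12 and 6.21, and Dlg1 at 10.08 in array 1, above 9.96, 9.98 and 9.97. Grik1 was at 6.92 in TNF+/+ array 2, above 6.60, 6.58 and 6.63. Lrrtm2 was at 9.55 in TNF-/- array 3, above 9.29, 9.32 and 9.33. Of the marker lists, cerebellum averaged 7.42 in TNF+/+ array 1, above 5.97, 5.88 and 5.88. Astrocyte markers averaged 9.55 in TNF-/- array 3, above 9.36, 9.35 and 9.34, and 9.53 in TNF+/+ array 4, above 9.42, 9.41 and 9.40. Oligodendrocyte markers averaged 9.60 in TNF-/- array 4, above 9.49, 9.49 and 9.50.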

How the results depend on the processing

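No member passed under any alternative, SAM included, and the lowest adjusted p of a member was 0.198 (limma, mean of all of a gene's probe sets). Members higher at an unadjusted p under 0.05, 5 as reported, numbered 2 after quantile normalization, 3 with array medians subtracted, 3 with dim probe sets left out (37 members tested), 3 with the replicate block, 0 without TNF+/+ arrays 3 and 4, and 1 to 5 with 1 array left out. Members lower numbered 0 as reported, 2 without TNF+/+ arrays 3 and 4, 2 without TNF-/- array 1, 1 without TNF+/+ array 2, and 0 to 2 with 1 array left out. Probe sets called, 29 as reported, numbered 63 among those with 1 symbol, where fewer were tested, 53 by SAM, 0 with the replicate block, 0 without TNF+/+ arrays 3 and 4, and 1 to 20 with 1 array left out, lowest without TNF+/+ array 3. Same-numbered arrays correlated at 0.067 to 0.112 in their deviations. TNF-/- arrays 1, 2 and 4 correlated best with the TNF+/+ array of their own number, and TNF-/- array 3 with TNF+/+ array 4. These values do not settle whether the numbers pair samples. The labels do not say so, and the block was kept as an alternative. Of 693 member differences under alternatives, 44 turned sign, in 15 members whose reported size was at most 0.13, and 26 members never turned. Part of the 693 could not turn. The dim filter, the limit to 1 symbol, the trended robust prior and the replicate block leave every difference as it was. The mean of a gene's probe sets can change only the 2 members with several. The count of 693 therefore overstates how often the signs were put to a check. Without TNF+/+ arrays 3 and 4 the turned differences were -0.0016 for Grik4, -0.0118 for Dlg2, -0.0638 for Gria3, 0.0195 for Cnih3, -0.0067 for Dlg3, -0.0933 for Gria2, -0.0067 for Grin3b, 0.0441 for Pick1, -0.0509 for Gsg1l, -0.1184 for Grid2ip, 0.0650 for Camk2b and 0.0353 for Dlg4. Quantile normalization gave -0.0021 for Dlg3 and -0.0090 for Gsg1l, median subtraction -0.0014 for Gsg1l and -0.0111 for Grid2ip, and array weights 0.0094 for Camk2b. With 1 array left out, differences ran from -0.0873 to 0.0106 for Cnih3, -0.0130 to 0.0772 for Gria2, -0.0192 to 0.0419 for Grin3b, -0.0715 to 0.0342 for Pick1, -0.0862 to 0.0454 for Grin2a, -0.1679 to 0.0702 for Shank3, -0.0418 to 0.0775 for Gsg1l, -0.1427 to 0.1379 for Shank1, -0.0382 to 0.0626 for Grid2ip, -0.0394 to 0.0532 for Camk2b and -0.0348 to 0.0241 for Dlg4. TNF+/+ arrays 3 and 4 were below all 6 other arrays for 14 members, so the fit without them restates that order and is no independent check. The cause of the turned signs was not tested. The unadjusted intervals are not a detection limit: 5 members had intervals above 0 and did not pass. On simulated data with independent noise, unlike that of the real arrays, limma recovered 45% of differences of 0.5. The number of arrays limits this, and dim probe sets such as Grm6 and Grin3b limit what their narrow intervals show.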
